A study of Tetranychus urticae with 4 samples.

Results

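The genes described here were abundant in the front body of the two-spotted spider mite Tetranychus urticae and 8 to 16 times more abundant there than in the whole animal. They were chosen by their measured levels: a CPM (counts scaled to a common library total) of 50 or more in the proterosoma library, and a ratio of proterosoma to mean whole-body CPM above 8 and at most 16, with 0.1 CPM added to both sides. This gave 203 of the 18020 gene identifiers in the count table, or 7.34% of the 2764 identifiers that reached 50 CPM there. One RNA library came from proterosomas dissected from 250 adult females, and 3 came from whole bodies of 100 intact adult females each. Every library was of the London strain, a laboratory strain, with no treatment named in the labels. The ages, the host plant and whether the whole-body pools came from separate cultures are not given, so the spread behind the p-values may be purely technical. With a single proterosoma library, no front-body value has a replicate.

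The proterosoma makes up the anterior body of the mite. It carries the mouthparts, the front legs and the eyes, and it holds the fused central nerve mass, the silk glands of the palps and the salivary glands, whose secretions enter the plant cell during feeding. The study set front body against whole body to find genes expressed more strongly in the salivary glands. An intact body contains its own front body, so both sides of the ratio hold RNA from the same tissues. In such bulk samples, more cells of a type and more RNA per cell cannot be told apart. The files pair no identifier with a gene name, and 0 of the 203 members were found in the RefSeq gene table for another assembly of this species. The sources used here name none of them either. The members are therefore given by identifier, with no product or role, and the labelled tissues could not be checked against marker genes.

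The proterosoma library held 19667380 counts, and whole-body replicates 1, 2 and 3 held 23647775, 12356237 and 11630954. Each member had at least 994 counts in the proterosoma library and at least 80, 32 and 36 counts in whole-body replicates 1, 2 and 3, so all 203 passed the filter on low counts. The fold itself was used to choose the members and is given as a description. edgeR called all 203 higher in the proterosoma library, where 41.0% of the 13278 genes tested were called higher, and nothing is read from that count.

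Together the 203 genes took a sizeable part of the front-body reads. They held 12.96% of the proterosoma reads (Wilson 95% interval 12.95 to 12.98%), against 1.23%, 1.15% and 1.05% of the reads of whole-body replicates 1, 2 and 3. The whole-body share was 1.14% ± 0.0927 (SD, n = 3). These intervals cover counting error only, because the reads carry no molecular identifiers. Genes of at least 50 CPM with ratios of 4 to 8 were almost as many (197) and held 5.62% of the proterosoma reads, and 161 genes with ratios of 16 to 32 held 20.5%.

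The share rested on few genes. The most abundant member alone gave 18.1% of all reads counted for the members in the proterosoma library, the top 10 gave 58.7%, and the top 20 gave 70.6%. Those 20 genes were the members at or above 1000 CPM, and they held 9.15% of the proterosoma reads. At the other end, 64 members lay between 50 and 100 CPM and together held 0.446%. The median member stood at 146 CPM in the proterosoma library and at 12.9 CPM in whole bodies, with a median ratio of 11.4. Ratios were spread over the whole interval: 61 members lay between 8 and 10, 64 between 10 and 12, 42 between 12 and 14, and 36 between 14 and 16.

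**Figure D1:**
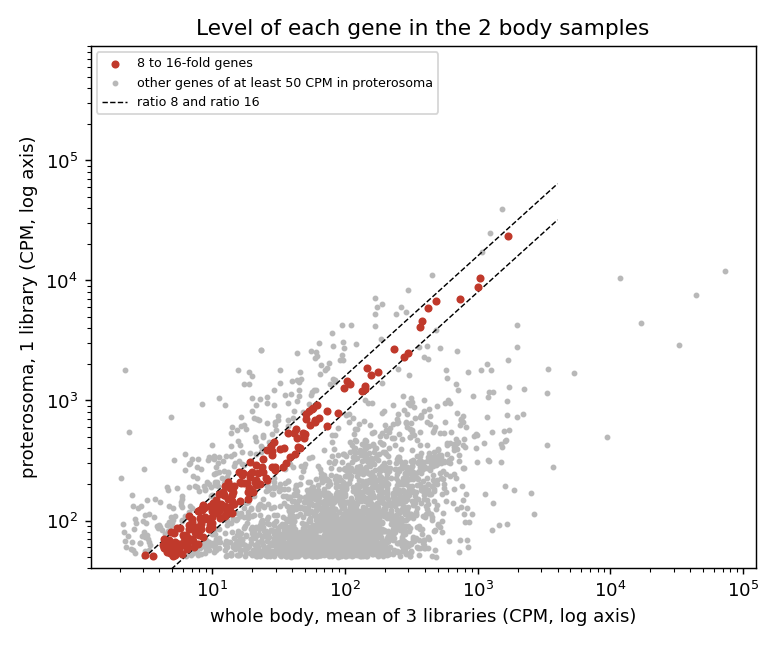
Each point is a gene that reached 50 CPM in the proterosoma library and had at least 20 counts in each whole-body library. Its proterosoma level (vertical) is plotted against its mean whole-body level (horizontal), both in CPM on log axes, with dashed lines at ratios of 8 and 16; the 203 red members run between the lines from 50.5 to 23398 CPM.

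Members reached the very top of the proterosoma library. The library's 10 most abundant genes included 3 members, and its 100 most abundant included 18. For whole bodies, by their mean level, the numbers were 0 and 3, a difference that the rule largely builds in. The highest was tetur07g00320, the 3rd most abundant gene of the proterosoma library and the 28th of whole bodies. It stood at 23398 CPM in the proterosoma library, against 2012, 1835 and 1223 CPM in whole-body replicates 1, 2 and 3. The ratio was 13.8. Its reads made up 2.34% of the proterosoma library, against 0.169% ± 0.0414 of whole-body libraries (SD, n = 3). Its whole-body level was lowest in replicate 3, and the proterosoma value lay more than 10 times above each of them.

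Another member of scaffold 7, tetur07g00160, was the 7th most abundant gene of the proterosoma library. It had 10446 CPM there, against 970, 821 and 1323 CPM in whole-body replicates 1, 2 and 3. Here replicate 3 was the highest whole body, the opposite of tetur07g00320. The next was tetur30g00140, with 8802 CPM in the proterosoma library, against 1091, 1023 and 916 CPM in whole bodies. Its whole-body values lay close together, with a coefficient of variation of 8.77%.

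Members 4 to 6 in abundance ranked 13th to 18th in the proterosoma library. tetur03g09480 had 7034 CPM in the proterosoma library, against 778, 806 and 610 CPM in whole-body replicates 1, 2 and 3. tetur32g01910 had 6764 CPM there, against 493, 435 and 525 CPM. Those genes differed more in ratio (9.62 and 13.96) than in proterosoma level. tetur21g00840, with 5882 CPM in the proterosoma library and 459, 416 and 388 CPM in whole bodies, had a ratio of 13.96 as well.

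The remaining members of the top 10 lay between 2463 and 4565 CPM in the proterosoma library. tetur12g02060 had 4565 CPM in the proterosoma library, against 460, 371 and 312 CPM in whole-body replicates 1, 2 and 3. tetur01g00130 had 4067 CPM there, against 416, 466 and 217 CPM, and its coefficient of variation over whole bodies, 35.9%, was the highest of the 10. tetur29g00810 had 2669 CPM in the proterosoma library, against 264, 245 and 193 CPM in whole bodies. tetur03g04010 had 2463 CPM there, against 307, 326 and 268 CPM, and with a ratio of 8.21 it was the least enriched of the 10. In 8 of the 10 genes replicate 3 was the lowest whole body.

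**Figure D2:**
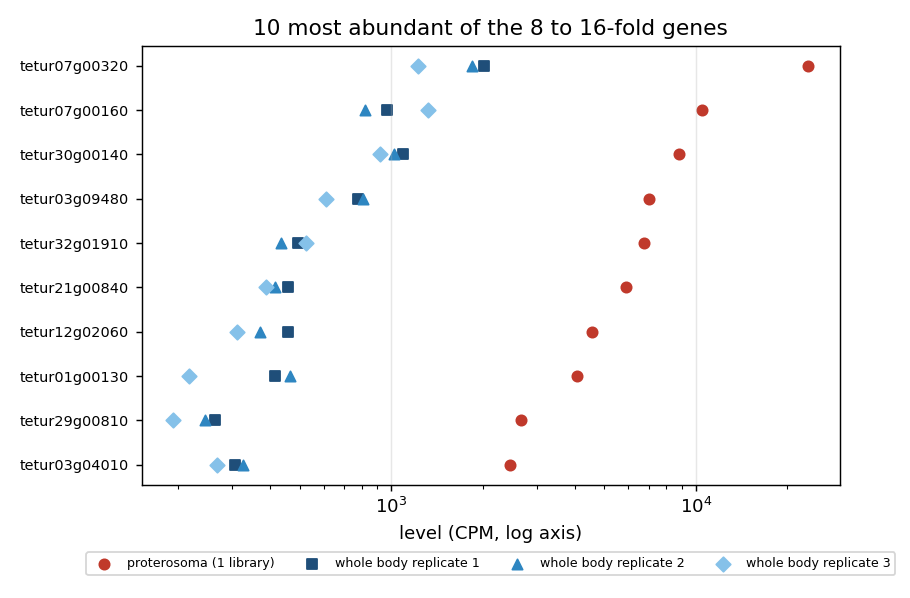
The level of the 10 most abundant members in each library, in CPM on a log axis, with 1 row per gene; red circles are the single proterosoma library and blue symbols the 3 whole-body replicates. The proterosoma points run from 2463 to 23398 CPM, and for tetur01g00130 whole-body replicate 3 (217 CPM) sits apart from replicates 1 and 2 (416 and 466 CPM).

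The limits of the group cut through a continuous range. Just inside the ratio of 8 were tetur01g02070 (8.08), tetur92g00010 (8.11) and tetur01g13740 (8.12), and just outside were tetur20g02580, tetur06g06933 and tetur05g05710 (7.98). At the upper limit, tetur02g13090 (15.97), tetur11g05070 (15.94) and tetur08g02970 (15.93) were inside. Outside it were tetur05g04970 (16.04), tetur28g00250 (16.15) and tetur12g01560 (16.05), the last with 17220 CPM in the proterosoma library. At the minimum level, tetur06g03760, tetur31g01320 and tetur14g00070 entered with 50.5, 50.8 and 51.1 CPM. tetur07g01120, tetur02g01150 and tetur10g04390 missed it with 49.7, 49.4 and 49.2 CPM.

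Given counting error, the 95% interval of the ratio (from the Poisson variance of the counts, on the log scale) lay within 8 to 16 for 162 members and crossed a limit for 41. Set against each whole-body library singly, the ratio stayed within the limits in all 3 for 134 members. The single-library ratios ran from 5.36, for tetur92g00010 over replicate 3, to 47.4, for tetur05g04560 over replicate 2. The ratios also depend on the scaling. With TMM-scaled library sizes, which allow for the different makeup of the libraries, the same 203 genes had ratios of 11.7 to 23.1 with a median of 16.6, and 116 of them were above 16. Against TMM, scaling by library total shifted the log2 fold of all tested genes by a median of -0.57. In the authors' deposited table the log2 folds of the 203 genes, all higher in the proterosoma library, ran from 3.25 to 4.58 with a median of 4.07. That table compares the same libraries that the rule used, so these folds too are only a description.

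The whole bodies also differed from one another. The rule used their mean, and a low value in a single replicate lowers that mean and can carry a gene over the ratio of 8, so the differences among whole bodies are not independent of how the members were chosen and are given as a description. The coefficient of variation over the 3 whole-body libraries had a median of 11.5% for the members, against 7.63% for the 10525 genes with at least 20 counts in each whole-body library. It was above 10% for 116 members (57.1%), against 35.9% of those genes, and above 20% for 41 members (20.2%), against 9.71%. With the variance expected from counting removed, the medians were 8.73% for the members and 5.03% for those 10525 genes. Without replicate 1, 2 or 3, the ratios of 8, 12 and 12 members lay outside 8 to 16.

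The steadiest member was tetur03g08060, with 13.3, 13.1 and 13.1 CPM in whole-body replicates 1, 2 and 3 and a coefficient of variation of 1.02%. tetur05g00340 (44.9, 46.5 and 44.9 CPM) and tetur29g00370 (72.6, 73.0 and 75.7 CPM) followed, with 2.08% and 2.23%. The other 2 of the 5 steadiest were tetur22g00870 and tetur15g03230, with 2.39% and 2.62%. None of the 5 was among the 10 most abundant members, and their ratios ran from 8.36 to 15.8.

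The spread among whole bodies was greater in classes of higher fold. Among genes of at least 50 CPM in the proterosoma library and at least 20 counts in each whole body, the median coefficient of variation was 7.62% for ratios of 2 to 4 and 9.53% for ratios of 4 to 8. It was 11.5% for the members, 13.7% for ratios of 16 to 32 and 18.6% for ratios of 32 to 64. With counting variance removed, the same medians were 6.45%, 7.51%, 8.73%, 10.7% and 15.6%. A coefficient of variation above 30% was found for 2 of 375, 5 of 197, 15 of 203, 26 of 158 and 20 of 66 genes in these classes. Genes are not replicates, so no test of this order was made. The classes also differed in whole-body level, and a low replicate raises a gene's class.

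**Figure D3:**
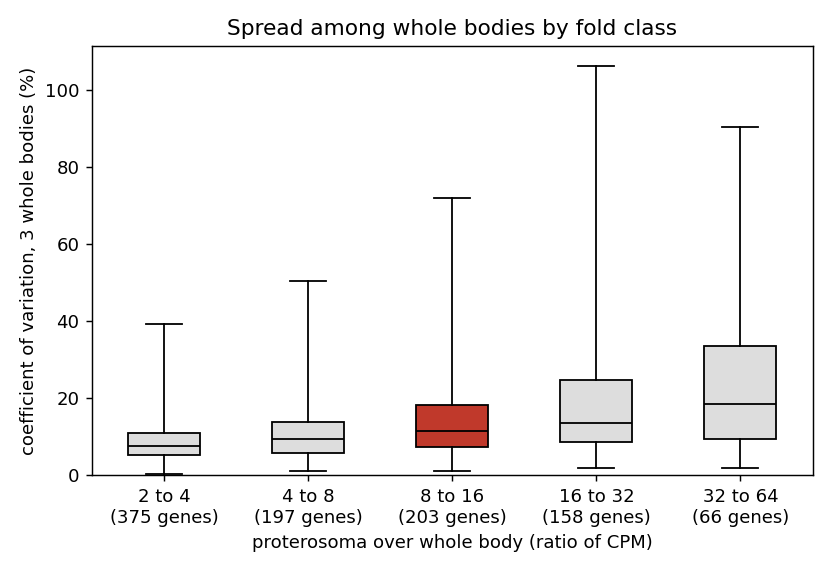
The coefficient of variation of CPM over the 3 whole-body libraries, in percent, for genes of at least 50 CPM in the proterosoma library and at least 20 counts in each whole body, by ratio class; boxes give the quartiles and median, whiskers the full range, and the members are red. The medians run from 7.62% at ratios of 2 to 4, through 11.5% for the members, to 18.6% at ratios of 32 to 64.

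Each whole-body library was then tested against the other whole bodies with edgeR over 12228 genes. Each test sets a single library against the spread between the other 2 (1 residual degree of freedom), so the tested library has no spread of its own and the p-values compare these libraries only. A low replicate can also bring a gene into the group: without replicate 1, 2 or 3, 2, 7 and 5 members had a ratio of 8 or less. The members were not matched to other genes by level either, so the shares that follow are a description. In replicate 2, 4 of the 203 members (all lower) were called, where 1.54% of all genes tested were called in either direction. An unadjusted p under 0.05 was found there for 26 members, or 12.8%, against 6.42% of all genes. In replicate 1, 0 members were called by edgeR or DESeq2 (0% of all genes with either), and 4 members had an unadjusted p under 0.05 (1.97%, against 1.95% of all genes). In replicate 3, 0 members were called by edgeR (0.00818% of all genes), with 42 members at an unadjusted p under 0.05 (20.7%, against 8.95% of all genes). DESeq2 called 6 members in replicate 3, of the 166 to which it gave an adjusted p, where it called 0.300% of all 8672 such genes. In replicate 2 the count was 2 with DESeq2 (0.687% of all genes), 8 by library size alone (2.25%) and 13 over all genes with at least 1 count (2.36%).

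The lowest log2 ratios in replicate 2 were those of a neighbouring pair on scaffold 5. tetur05g04560 had 3.80 CPM in whole-body replicate 2, against 22.8 and 30.4 CPM in replicates 1 and 3, from 47, 539 and 353 counts in the same order. Its log2 ratio was -2.78 (edgeR adjusted p = 1.37e-06). The next identifier, tetur05g04580, had 4.45 CPM in replicate 2, against 25.1 and 31.3 CPM in replicates 1 and 3, with a log2 ratio of -2.64 (edgeR adjusted p = 8.39e-07). In the proterosoma library the pair stood at 185 and 173 CPM. These were the only members with a log2 ratio below -2 in replicate 2, and the share of all genes is not given. Without that replicate their ratios of proterosoma to whole body were 6.94 and 6.12, against 9.69 and 8.50 with it, so both met the rule only with replicate 2 included. Some genes with ratios above 16, in runs of neighbouring genes above 8 that held a member, were also low in replicate 2. tetur03g10083 had 22.1 CPM there, against 147 and 161 CPM in replicates 1 and 3. tetur11g06390 had 1.78 CPM, against 9.94 and 14.7 CPM. tetur03g10093, tetur11g06400 and tetur07g00150 had a like pattern, and the other such genes fell less or not at all.

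The other called members fell less. tetur22g02790 had 4.86 CPM in replicate 2, against 13.02 and 11.9 CPM in replicates 1 and 3, a log2 ratio of -1.35 (edgeR adjusted p = 0.00353). tetur04g08890 had 7.04 CPM in replicate 2, against 13.997 and 16.3 CPM, a log2 ratio of -1.09 (edgeR adjusted p = 0.0127). DESeq2 did not call these genes, with adjusted p of 0.137 and 0.362. They too left the interval without replicate 2, with ratios of 7.59 and 7.19. tetur08g08050 (6.15 CPM in replicate 2, against 10.6 and 19.5 CPM) and tetur92g00010 (8.25 CPM, against 12.8 and 21.5 CPM) completed the 5 most variable members, with coefficients of variation of 56.3% and 47.5%. Their edgeR adjusted p in replicate 2 were 0.0623 and 0.0967, and their ratios without it 11.3 and 6.72.

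In replicate 3, tetur01g00130, tetur04g01580, tetur04g01610 and tetur01g12820, named together after their values were seen, had log2 ratios of -0.98 to -0.96. They were the only members below -0.9, or 1.97% of the members, close to the 1.46% of all genes tested that lay below it. tetur04g01610 had 91.5 CPM in replicate 3, against 187 and 190 CPM in replicates 1 and 2. tetur04g01580, 3 places before it, had 63.8 CPM in replicate 3, against 128 and 134 CPM. tetur01g12820 had 31.6 CPM in replicate 3, against 67.4 and 61.2 CPM.

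All 4 genes had coefficients of variation between 35.8% and 35.9%, and together they held 0.788% of the proterosoma reads. None passed the edgeR threshold (adjusted p 0.0532, 0.0532, 0.0564 and 0.123 for tetur04g01580, tetur04g01610, tetur01g12820 and tetur01g00130). DESeq2 called all 4 lower in replicate 3, with adjusted p from 1.05e-05 to 0.0134. Under the other edgeR settings their adjusted p ran from 0.110 to 0.536. DESeq2 also called tetur07g00320 lower and tetur07g00160 higher in replicate 3, both with an adjusted p of 0.0134.

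**Figure D4:**
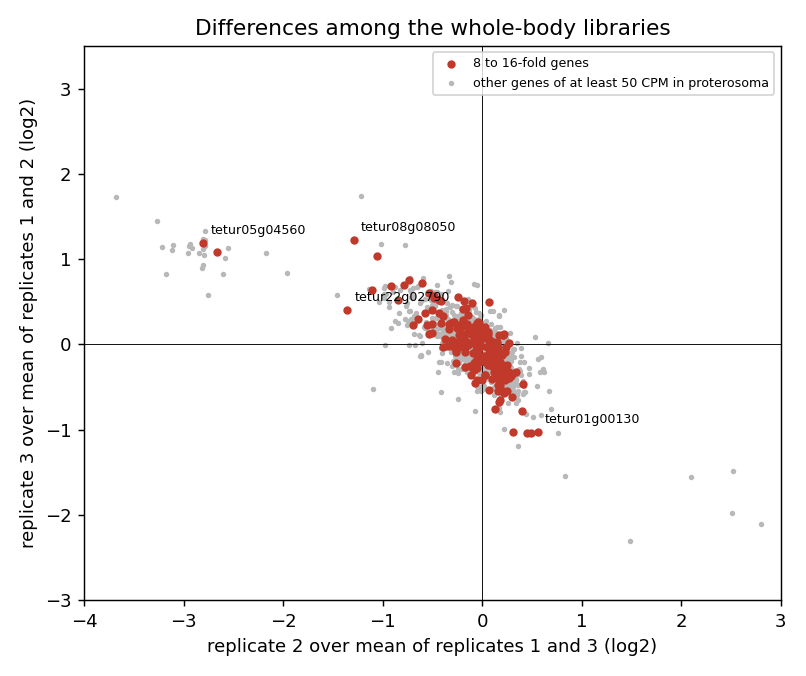
The log2 ratio of whole-body replicate 2 to the mean of replicates 1 and 3 (horizontal) against that of replicate 3 to the mean of replicates 1 and 2 (vertical), for members (red) and other genes of at least 50 CPM in the proterosoma library (grey), all with at least 20 counts in each whole body. Since each library also enters the other axis's mean, a downward slope is built in. Among the members, tetur05g04560 and its neighbour lie furthest left and the 4 genes with low replicate 3 values lie lowest. Some grey genes, such as tetur07g00150, lie further left.

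Both ratios in that plot were within 0.5 log2 units of 0 for 163 of the 203 members (80.3%), and for 93.0% of the 2530 other genes shown. Those other genes included 1719 with ratios up to 2, whose median whole-body level was 135 CPM, against 12.9 CPM for the members. The shares are therefore not matched by level, and nothing is read from their difference. The coefficient of variation was above 30% for 15 members (7.39%), against 3.33% of the 10525 genes with at least 20 counts in each whole body. Of those 15 members, 11 were lowest in replicate 2 and 4 in replicate 3. Those 11 had at most 44.5 CPM in any whole body, and 5 of them had a ratio of 8 or less without replicate 2. Without replicate 1 the number of members above 30% was 25, and it was 13 without replicate 2 and 10 without replicate 3. The shares of all genes are not given for these settings, so nothing is read from the changes. Over all members, replicate 1 was the highest whole body for 82, replicate 2 for 58 and replicate 3 for 63. In the 10525 genes with at least 20 counts in each whole body, replicate 1 was highest for 50.4%, replicate 2 for 26.2% and replicate 3 for 23.5%.

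Set only against counting error, 84 of the 203 members (41.4%) differed among the whole-body libraries, where 29.9% of the 12649 genes tested did (chi-square test of the counts, adjusted p under 0.05). That test compares these libraries and finds smaller differences in genes with more counts, and the members were not matched to other genes by level. Among genes of at least 50 CPM in the proterosoma library, it called 1055 of 1719 at ratios up to 2. It called 199 of 375 at ratios of 2 to 4, 87 of 197 at 4 to 8 and 80 of 161 at 16 to 32. The members' share was below that of each of these classes. Without replicate 1, 2 or 3 the numbers of members were 66, 62 and 40. The shares of all genes are not given for these settings, so nothing is read from the differences.

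By the scaffold and serial numbers in the identifiers, the members were scattered over the genome with a few side by side. They lay on 44 of the 428 scaffolds in the table, and on 41 of the 44 scaffolds with at least 20 identifiers. Scaffold 1 held 18 members, or 8.87% of them, and 8.80% of all identifiers. Scaffold 4 held 13, or 6.404%, against 5.06% of identifiers. Of the scaffolds with at least 20 identifiers, 28, 34 and 49 held none, among 258, 109 and 21 identifiers. Among those scaffolds the share of identifiers that were members was highest on scaffold 43 (3 of 51, or 5.88%), against 1.13% in the whole table. The order is that of the identifiers and was not checked against an annotation.

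Next to another member stood 21 of the 203 (10.3%), while 2.21% of all identifiers stood next to a member. These were 9 pairs and 1 run of 3, and the other 182 members had no member beside them. Within 3 places of another member were 29. A neighbour of at least 50 CPM and a ratio above 8, members or more enriched genes, was found for 37 members (18.2%). The same held for 8.12% of the genes with ratios of 4 to 8, for 15.5% of those with ratios of 16 to 32, and for 5.07% of all identifiers. No test of these shares was made. Whether near-identical or overlapping neighbours shared reads was not tested, since the files hold no sequences or positions.

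The run of 3 lay on scaffold 43, which has 51 identifiers and no other member. tetur43g00520 had 61.3 CPM in the proterosoma library, against 5.46, 3.32 and 7.05 CPM in whole-body replicates 1, 2 and 3. tetur43g00530 had 120 CPM there, against 12.01, 10.4 and 7.74 CPM. tetur43g00540 had 152 CPM there, against 19.7, 19.2 and 16.9 CPM. Their ratios were 11.4, 11.8 and 8.16, but the order of the whole bodies differed, with replicate 3 the highest in the first gene and the lowest in the others. The 4 identifiers before the run and the first after it had at most 0.458 CPM in the proterosoma library.

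Pairs were ordered by their higher gene, and the first was tetur29g00800 and tetur29g00810 on scaffold 29. tetur29g00800 had 916 CPM in the proterosoma library, against 61.9, 67.8 and 54.3 CPM in whole-body replicates 1, 2 and 3. Its partner's values are given among the top 10, and in both genes replicate 3 was the lowest whole body. The identifier before the pair had a ratio of 1.602 and the one after it 2.69.

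On scaffold 4, tetur04g01610 and tetur04g01620 were neighbours, with 1625 and 241 CPM in the proterosoma library and ratios of 10.4 and 14.4. Their whole bodies did not move alike: replicate 3 was the lowest for tetur04g01610, while tetur04g01620 had 14.4, 15.5 and 20.1 CPM in replicates 1, 2 and 3. The profile of tetur04g01610 instead resembled that of tetur04g01580, with 1370 CPM in the proterosoma library. The 2 identifiers between those genes had at most 1.73 CPM there.

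The third pair by its higher gene, tetur02g11670 and tetur02g11680, had 701 and 70.2 CPM in the proterosoma library. In whole-body replicates 1, 2 and 3, tetur02g11670 had 55.7, 55.9 and 42.2 CPM and tetur02g11680 had 8.84, 7.45 and 4.81 CPM. The next identifier, tetur02g11700, was also higher in the front body, with a ratio of 6.32. Close behind by its higher gene, and ahead by its lower one, were tetur18g00470 and tetur18g00480, with 175 and 625 CPM in the proterosoma library.

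**Figure D5:**
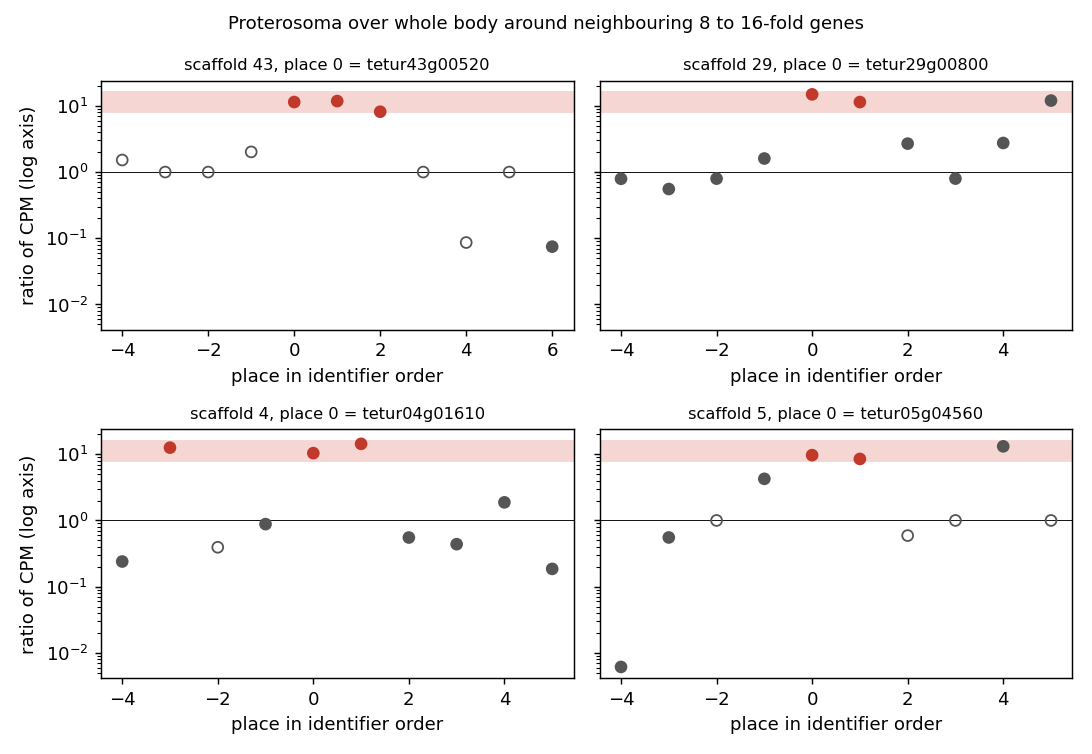
The ratio of proterosoma to whole-body CPM (log axis) for identifiers around 4 groups of neighbouring members, placed by identifier order with 0 at the first of the pair or run; members are red, other genes dark grey, open circles have under 1 CPM in the proterosoma library, and the band marks ratios of 8 to 16. Members rise out of neighbours that lie mostly near or below a ratio of 1, although scaffolds 29 and 5 each have a gene under 50 CPM inside the band, and on scaffold 4 a further member stands 3 places before the pair. Open circles at exactly 1, on scaffolds 43 and 5, are identifiers with no count in any library, placed there by the added 0.1 CPM.

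More strongly enriched genes also stood beside members: 16 members (7.88%) were next to a gene of at least 50 CPM with a ratio above 16, of which there were 270, and 2.91% of all identifiers were. The 2nd most abundant member, tetur07g00160, followed tetur07g00150, which had 3050 CPM in the proterosoma library and a ratio of 31.8. That neighbour had 15.6 CPM in whole-body replicate 2, against 123 and 149 CPM in replicates 1 and 3. tetur07g00160 itself had 821 CPM in replicate 2, against 970 and 1323 CPM. tetur06g00500 (323 CPM in the proterosoma library, ratio 13.4) preceded tetur06g00510 and tetur06g00520, with 8320 and 1413 CPM there and ratios of 28.0 and 16.9. Runs of genes above a ratio of 8 that held a member numbered 26, of which 4 were 3 genes long and none longer.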

How the data were processed

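RNA-seq read counts per gene were analysed for 1 proterosoma and 3 whole-body libraries. The authors deposited raw counts, with no summary lines. The submitters' processing notes name STAR 2.5.0b, HTSeq 0.6.0 and DESeq2 1.6.3. Not given in the sources used here are genome build, annotation, strand setting and handling of multi-mapping reads, so similar or overlapping genes may share or lose reads. The authors also deposited their own comparison, with log2 folds and errors, a test score, p-values and a mean signal per gene. The header does not name the numerator, and a positive fold meant higher in the proterosoma library for all 203 members.

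CPM was computed from column totals (0 columns were left unused). The count test was edgeR 4.0.16's quasi-likelihood test in R 4.3.3, with TMM scaling, filterByExpr and Benjamini-Hochberg adjustment over all genes tested (threshold 0.05). It assumed that the single proterosoma library varies as whole bodies do. The chi-square test (scipy 1.17.1) took genes with an expected count of at least 5 in each whole body. Alternatives were other scalings, filters, limits of the rule, DESeq2 1.42.0 and the omission of each whole body. Named genes were the 10 most abundant members, runs of 3, the top 3 pairs by their higher gene, those nearest each limit, the 5 most and 5 least variable and those called among whole bodies. Others were named after their values were seen. The members and lists were chosen with earlier results of these data known.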

Additional observations from a re-analysis of the deposited data

How the results depend on the processing

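Of 76 values under alternatives, not counting the calls against whole bodies that the rule fixed, 50 kept their call or stayed within the limits set (1.5 times for counts, 1 SD or the 95% interval for shares, 1.2 times for the coefficient of variation). With TMM scaling 229 genes met the rule, 87 of them among the 203, and they held 8.70% of the proterosoma reads, with 4 neighbouring pairs and 7 genes in runs. With DESeq2 size factors the share was 8.72%, with 4 pairs and 7 genes in runs. The share was 13.1% with a constant of 1, 13.4% with the whole-body median, 12.5% with a minimum of 100 CPM and 13.2% with 25 CPM. Leaving out 1 whole body gave 13.3% to 15.4% of the proterosoma reads and 1.197% to 1.32% of the whole-body reads, and 210 to 214 members. Without tetur07g00320 the shares were 10.6% and 0.975%. Pairs within 3 places numbered 18. The median coefficient of variation was 8.73% with counting variance subtracted and 7.91% to 10.8% without 1 whole body. The number of members above 30% was 10 to 25, and the number past the chi-square test 40 to 66, both without 1 whole body, and the chi-square number was 85 with an expected count of at least 50. Members called in replicate 2 numbered 8 by library size alone, 13 over genes with at least 1 count and 2 with DESeq2, and in replicate 3 DESeq2 called 6; the cause was not tested. Of 196 recomputed ratios of 28 named members, 151 moved by less than the spread over whole bodies and 42 moved with the 2 other scalings. No paired analysis was possible because no replicate number links front body and whole body. Leaving out a whole body in the tests among whole bodies would leave no residual degrees of freedom and was not run. The alternatives for the chi-square test, the 30% count and the omission of the top member were chosen after seeing the data. Depth limits whole-body values most, at 32 to 80 counts for the lowest members.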
